A study of Mus musculus with 4 samples.

Results

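The genes described here release calcium ions inside muscle cells and pump them back. They are 10 genes, Cacna1s, Stac3, Ryr1, Trdn, Jph2, Casq1, Casq2, Atp2a1, Atp2a2 and Sln, and their members on the array are the 23 probe sets, of 45101 in all, that the annotation maps to exactly 1 of these symbols. Calcium release couples the electrical signal of a muscle fibre to contraction. The voltage sensor in the transverse tubule (Cacna1s, held in place and made functional by Stac3) opens the ryanodine receptor (Ryr1) in the facing membrane of the sarcoplasmic reticulum, at a junction built by junctophilins such as Jph2 and by triadin (Trdn). Calsequestrin (Casq1 in fast fibres, Casq2 in slow fibres and heart) buffers calcium inside the reticulum. The SERCA pumps (Atp2a1 in fast fibres, Atp2a2 in slow fibres, heart and many other cells) return calcium to the store, and the small peptide sarcolipin (Sln) restrains them.

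All 4 arrays measured C2C12, a mouse myoblast line whose cells leave the cycle and fuse into myotubes in low serum. The 2 shLSD1 arrays came from cells stably transfected with a SureSilencing plasmid encoding a short hairpin RNA against LSD1, the histone demethylase encoded by Kdm1a, and the 2 shControl arrays from cells carrying the same kind of plasmid with a non-targeting hairpin. Both kinds of cell were selected with hygromycin (750 µg/mL during growth), grown in 25 mM glucose with 10% fetal bovine serum, and collected 48 hours after the switch to 2% horse serum. The question here is how the calcium genes differ in differentiating cells with less LSD1. The labels do not say whether arrays of a group came from separate cultures or transfections, so a p-value reflects only how far these arrays vary, which may be technical.

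Each value is a MAS5 signal, a linear intensity per probe set. Median signals per array lay between 67.3 and 69.7, and the log2 signals of tested genes correlated at 0.991 between shLSD1 arrays and 0.993 between shControl arrays. Across the groups they correlated at 0.976 to 0.978. Precision is limited by having 2 arrays a group. Kdm1a signals were 300.9 and 367.0 on the shLSD1 arrays and 1842 and 1912 on the shControl arrays, which leaves 17.7% in the knockdown (n = 2 each, limma adjusted p = 4.55e-05). Genes whose mean log2 signal exceeded 6.03, the median of all probe sets (a signal of 65.6), were tested with limma, with p-values adjusted by Benjamini-Hochberg over all 10788 genes, and a gene is said to fall or rise where the adjusted p was under 0.05. A log2 fold change is shLSD1 minus shControl, and a gene is represented by 1 probe set unless another is named. A fit without 1 array leaves 1 array in that group, so its p-value takes no spread from that group.

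The calsequestrins, the fast SERCA pump and the ryanodine receptor fell in the knockdown, and 1 triadin probe set rose. The voltage sensor genes and Jph2 measured lower without passing the test. Atp2a2 did not pass the test with the probe set that represents it. Its probe sets 1416551_at and 1452363_a_at fell in a fit of all probe sets above the filter, with log2 fold changes of -0.35 and -0.44. Of the 10 genes, 9 passed the signal filter and Sln did not. Of the 9 tested, 4 fell and 1 rose, and 4 did not pass the test. Over all tested genes 6.82% fell and 8.46% rose, 15.3% together. The 10 genes were chosen with earlier results of these data known, so these shares are descriptive only. The median log2 fold change was -0.33 over the 9 genes and 0.00 over all tested genes. Both shLSD1 signals lay below both shControl signals for 7 of the 9 genes, and above them for 1. Over all tested genes this held for 29.2% and 30.5%, so that 59.6% had groups without overlap. An unadjusted limma p under 0.05 was found for 8 of the 9, against 30.6% of all tested genes. Of 15 tested markers of differentiated muscle 12 also fell, and their part in the result was not tested. In a bulk sample fewer cells of a type and less RNA per cell cannot be told apart.

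**Figure D1:**
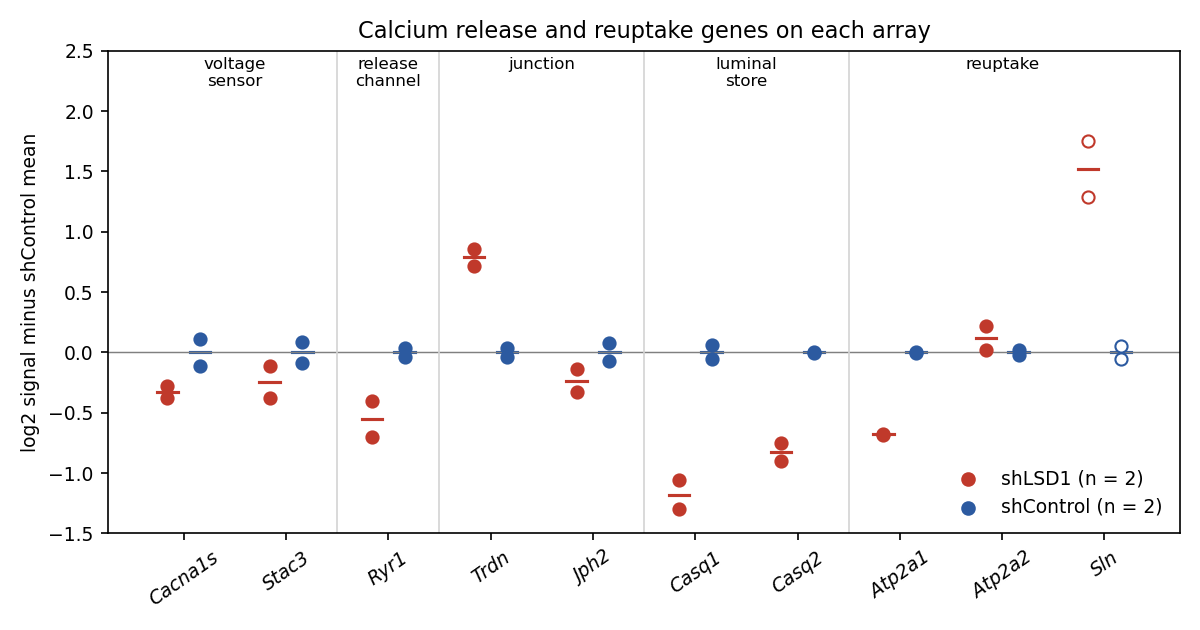
Log2 MAS5 signal of each of the 10 genes on each array, minus the gene's shControl mean, with shLSD1 arrays on the left and shControl arrays on the right of each gene and a bar at each group mean (n = 2 each). Filled points are genes above the signal filter and open points are Sln, which was too dim to test. Casq1 lies lowest among the tested genes, at -1.18, and Trdn highest, at 0.79.

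The start regions of the genes that fell are shown because all 4 passed the test in the same direction. RefSeq windows of 300 bases (250 before and 50 after the start site, build GRCm38.p6) were on hand for 6 of the 10 genes. Capitals mark E-boxes (CANNTG, the motif bound by myogenic factors such as MyoD and myogenin) and the MEF2 site, both searched on both strands, and 0 of the marked sites overlap another kind. The windows lie at chr1:172219846-172220145 (minus strand) for Casq1, chr3:102086165-102086464 (plus strand) for Casq2, chr7:126463024-126463323 (minus strand) for Atp2a1 and chr7:29125102-29125401 (minus strand) for Ryr1.
Casq1: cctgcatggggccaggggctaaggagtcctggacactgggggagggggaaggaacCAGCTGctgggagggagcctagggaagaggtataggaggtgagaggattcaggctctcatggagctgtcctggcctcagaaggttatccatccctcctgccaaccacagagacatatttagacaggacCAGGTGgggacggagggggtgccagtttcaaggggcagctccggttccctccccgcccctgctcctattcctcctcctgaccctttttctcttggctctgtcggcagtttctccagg
Casq2: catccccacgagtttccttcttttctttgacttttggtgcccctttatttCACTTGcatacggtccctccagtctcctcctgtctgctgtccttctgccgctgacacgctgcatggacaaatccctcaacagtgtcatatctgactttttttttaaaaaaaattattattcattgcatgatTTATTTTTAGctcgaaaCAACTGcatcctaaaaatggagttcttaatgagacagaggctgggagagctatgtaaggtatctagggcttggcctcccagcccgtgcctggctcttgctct
Atp2a1: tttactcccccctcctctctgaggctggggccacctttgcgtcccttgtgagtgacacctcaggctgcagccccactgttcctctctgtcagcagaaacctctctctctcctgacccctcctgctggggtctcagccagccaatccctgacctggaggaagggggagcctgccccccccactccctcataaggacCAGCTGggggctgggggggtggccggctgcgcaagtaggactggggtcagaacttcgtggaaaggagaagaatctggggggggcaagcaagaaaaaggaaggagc
Ryr1: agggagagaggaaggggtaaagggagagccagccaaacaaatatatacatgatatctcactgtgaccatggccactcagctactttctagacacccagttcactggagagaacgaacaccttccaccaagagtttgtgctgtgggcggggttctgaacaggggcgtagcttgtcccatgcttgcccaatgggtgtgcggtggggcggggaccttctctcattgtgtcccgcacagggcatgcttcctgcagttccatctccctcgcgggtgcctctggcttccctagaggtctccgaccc

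The Casq1 window holds 2 E-boxes, 1 of them CAGCTG and 1 CAGGTG, which is CACCTG on the other strand. That of Casq2 holds 2 E-boxes, neither of these forms, and the MEF2 site, whose first base is at -69 from the start site. Atp2a1 has 1 E-box, of the form CAGCTG, and the Ryr1 window has 0. Cacna1s has 2 E-boxes and Jph2 has 1, each with 1 CAGCTG, in windows not printed. In all, CANNTG occurred in 5 of the 6 windows, against 72.3% of all 32851 windows, CAGCTG in 4 of 6 against 16.3%, and CACCTG in 1 of 6 against 20.2%. The MEF2 site occurred in 1 of 6 against 3.19%, and TATAAA in 0 of 6 against 13.6%. The 6 windows are 1 for each gene, while the 32851 were not reduced to 1 a gene. These are matches of letters, not sites shown to be bound.

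Both calsequestrins of the calcium store fell. Casq1, the calsequestrin of fast fibres, had signals of 1009.7 and 856 on the shLSD1 arrays, against 2023 and 2190.3 on the shControl arrays. The shLSD1 signals were both far below the shControl signals, and the group means were 933 ± 109 and 2107 ± 118 (SD, n = 2 each). The log2 fold change was -1.18 (limma adjusted p = 4.48e-04, SE 0.09), so that 44.2% of control remained, and 0.565% of all tested genes had a lower value. Casq2, the calsequestrin of slow fibres and heart, had signals of 8073 and 8937 on the shLSD1 arrays, against 15034 and 15079.7 on the shControl arrays. The groups were again well apart, and Casq2 fell to 56.4% of control, a log2 fold change of -0.83 with an SE of 0.06 (limma adjusted p = 2.13e-04). The only Casq2 probe set is of the _s_at type, whose probes can match more than 1 transcript. The ratio of Casq1 to Casq2 within an array shifted by -0.35 on the log2 scale, and the shLSD1 arrays spanned 0.38 in that ratio. Without shLSD1 replicate 1 the shift was -0.55, and without shLSD1 replicate 2 it was -0.16. An exact two-sided permutation test over the 4 arrays gave p = 0.333, the smallest p this design allows (adjusted p = 0.400 over the 6 gene pairs compared, as for each pair with this p).

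Further genes of the store's lumen fell. Of 8 further tested genes of the luminal list, 3 fell, 0 rose and 5 did not pass the test, with a median of -0.15. Hrc, which encodes the histidine-rich calcium-binding protein that binds triadin, had signals of 2118 and 2418 on the shLSD1 arrays and 3589 and 3808 on the shControl arrays, and fell by 0.71 (SE 0.07, limma adjusted p = 1.23e-03). Srl, the gene of the luminal glycoprotein sarcalumenin, had 6704 and 7465 on the shLSD1 arrays and 10678 and 10919 on the shControl arrays, and fell by 0.61 (SE 0.06, limma adjusted p = 8.81e-04). Both genes had non-overlapping groups. The third, Calr, encodes calreticulin, the calcium buffer of the endoplasmic reticulum in most cells. It fell by 0.22 (SE 0.04, limma adjusted p = 0.0124) and is named after its value was seen. The Calr call was lost without shControl replicate 1, where it measured -0.19, and without shControl replicate 2, where it measured -0.25. Leaving out either shControl array lowered the number of calls over all genes. A call lost in this way, here and below, may therefore not be particular to its gene.

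**Figure D2:**
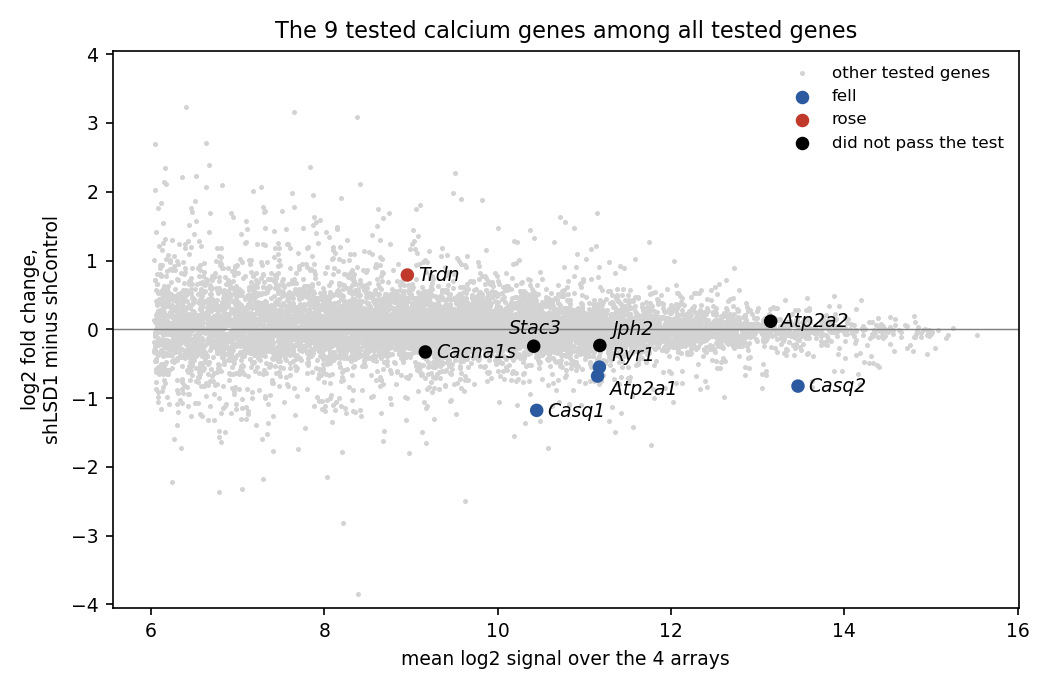
Log2 fold change (shLSD1 minus shControl) against mean log2 signal for every tested gene, in grey, with the 9 tested calcium genes coloured by whether they fell, rose or did not pass the test. Casq2 combines a high signal with a log2 fold change of -0.83. Atp2a2, drawn from its probe set 1427250_at and of similar signal range, lies near 0.

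The fast pump fell, and of the 5 tested probe sets of the slow pump 2 fell. Atp2a1, the SERCA1 pump of fast fibres, had signals of 1808 and 1789 on the shLSD1 arrays, against 2886 and 2878 on the shControl arrays. Replicates lay close together and the groups far apart. Atp2a1 fell by 0.68 (SE 0.06, limma adjusted p = 4.84e-04), which leaves 62.4% of control. Atp2a2, the SERCA2 pump, is read by 6 probe sets, of which 5 were bright enough to test. The brightest, 1427250_at, which represents the gene, had 8829 and 10145 on the shLSD1 arrays and 8847 and 8608 on the shControl arrays. These groups overlapped, and the log2 fold change was 0.12 (SE 0.07, limma adjusted p = 0.289). Without shLSD1 replicate 1 it was 0.22, and without shLSD1 replicate 2 it was 0.017.

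A second Atp2a2 probe set, 1416551_at, had 7078 and 7922 on the shLSD1 arrays and 9407 and 9728 on the shControl arrays. Another, 1452363_a_at, had 3096 and 3297 on the shLSD1 arrays and 4309 and 4386 on the shControl arrays. In both, the shLSD1 signals lay below the shControl signals. In the fit of all 22490 probe sets above the filter, 1416551_at fell by 0.35 (SE 0.06, limma adjusted p = 7.69e-03) and 1452363_a_at by 0.44 (SE 0.06, limma adjusted p = 1.90e-03). The call of 1416551_at was lost without shControl replicate 1 (adjusted p = 0.0608) and without shControl replicate 2 (adjusted p = 0.0884). The remaining tested probe sets, 1427251_at and 1437797_at, measured 0.08 and 0.05, with overlapping groups. The sixth, 1443551_at, had signals of 23.1 to 46.2 and was too dim to test. Atp2a2 is known to give rise to SERCA2a and SERCA2b through different 3' ends, and the annotation does not say which form each probe set reads. Within arrays, the difference of 1452363_a_at from the mean of the other tested Atp2a2 probe sets shifted by -0.42 (SE 0.13), which did not pass the test over the 14303 such differences of all genes (limma adjusted p = 0.482). Of those differences 0.0210% were called, 0.0140% lower and 0.00699% higher in shLSD1. Of the 13 that belong to these genes 0 were called by limma, with 4 at an unadjusted p under 0.05. The 4 belong to Trdn and Atp2a2, and each was taken against a mean that holds the gene's other probe sets, so they are not independent. The share of all 14303 differences at that p was not counted, so the 4 cannot be judged. Averaging its probe sets, Atp2a2 measured -0.10 (limma adjusted p = 0.639). The ratio of Atp2a1 to the representative Atp2a2 probe set shifted by -0.80, and by -0.58 with the mean of each gene's probe sets. An exact two-sided permutation test of the -0.80 shift over the 4 arrays gave p = 0.333, the smallest possible.

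Regulators of the pumps were dim or variable. Sln, the gene of sarcolipin, had signals of 45 and 61.9 on the shLSD1 arrays, against 17.7 and 19.1 on the shControl arrays, with probe set 1420884_at. Both shLSD1 signals were higher, but every signal lay under the filter of 65.6. A fit with no filter gave a log2 difference of 1.52 (SE 0.52, limma adjusted p = 0.157). The other Sln probe set, 1420883_at, had 21.2 and 20.0 on the shLSD1 arrays and 22.4 and 3.41 on the shControl arrays, which overlap. Pln, which encodes phospholamban, a regulator of SERCA2 in heart and slow fibres, had signals of 20.0 to 39.7 and was not tested. Mrln, which encodes the SERCA-inhibiting micropeptide myoregulin, had 519.7 and 704.5 on the shLSD1 arrays and 354.8 and 477.6 on the shControl arrays. Its shLSD1 signals were both higher, and its log2 fold change of 0.56 did not pass the test (SE 0.19, limma adjusted p = 0.0864). Atp2a3, the SERCA3 gene, measured -0.15 (SE 0.34, limma adjusted p = 0.803).

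The release channel fell. Ryr1, the skeletal ryanodine receptor, had signals of 1723 and 2114.5 on the shLSD1 arrays, against 2718 and 2874 on the shControl arrays, without overlap. Its log2 fold change was -0.55 (SE 0.10, limma adjusted p = 9.31e-03), which leaves 68.3% of control. The call was lost without shControl replicate 1 (adjusted p = 0.0645), without shControl replicate 2 (adjusted p = 0.0945) and when the Ryr1 probe sets were averaged (-0.48, adjusted p = 0.0746). The second Ryr1 probe set, 1457347_at, had 206.6 and 277.9 on the shLSD1 arrays and 331 and 309.6 on the shControl arrays. It too was lower on both shLSD1 arrays, at -0.42, and did not pass the test in the fit of all probe sets (SE 0.17, limma adjusted p = 0.162). Without shLSD1 replicate 2 it measured -0.63, and without shLSD1 replicate 1 it measured -0.20. Of the paralogs, Ryr3 measured 0.18 (SE 0.16, limma adjusted p = 0.499) and Ryr2, the cardiac form, had signals of 10.2 to 34.6 and was too dim to test. The ratio of Ryr1 to Ryr3 shifted by -0.73 (exact two-sided permutation p = 0.333, the smallest possible), and by -0.12 with the mean of each gene's probe sets.

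The voltage sensor genes were lower on both shLSD1 arrays and did not pass the test. Cacna1s, the pore-forming and voltage-sensing subunit, had signals of 495.4 and 529.4 on the shLSD1 arrays, against 595.6 and 695.3 on the shControl arrays. The groups did not overlap, and the log2 fold change of -0.33 did not pass the test (SE 0.11, limma adjusted p = 0.0850). Stac3, the adaptor that the sensor needs to couple to Ryr1, had 1144 and 1375 on the shLSD1 arrays and 1403 and 1577 on the shControl arrays. Its groups lay close together without overlap, and it measured -0.25 (SE 0.10, limma adjusted p = 0.157). Without shLSD1 replicate 2, Stac3 measured -0.38, and without shLSD1 replicate 1 it measured -0.11. Over the 4 arrays left out in turn, Cacna1s ranged from -0.44 to -0.22. The ratio of Cacna1s to Stac3 shifted by -0.08 (exact two-sided permutation p = 0.667).

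Among the sensor's auxiliary subunits and paralogs, 4 further genes were tested, of which 1 fell and 1 rose. Cacng1, the gamma subunit of the skeletal channel, fell by 0.25 (SE 0.05, limma adjusted p = 0.0159), with 3686 and 3827 on the shLSD1 arrays and 4516 and 4409 on the shControl arrays. Stac2, a paralog of Stac3 best known from neurons, rose by 0.44 (SE 0.09, limma adjusted p = 0.0190), with 738.8 and 746.5 on the shLSD1 arrays and 575.3 and 518.1 on the shControl arrays. Both groups were separate for each of these genes, and both calls were lost without shControl replicate 1 (adjusted p = 0.165 for Cacng1 and 0.0661 for Stac2) and without shControl replicate 2 (0.119 and 0.140). The beta subunit gene Cacnb1 measured -0.38 (SE 0.19, limma adjusted p = 0.220) and the alpha-2/delta subunit gene Cacna2d1 -0.04 (SE 0.05, limma adjusted p = 0.643). Stac, another paralog, had signals of 7.56 to 26.0 and was too dim to test.

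Of the junctophilins Jph1 fell and Jph2 did not pass the test. Jph2, a junctophilin that ties the tubule to the reticulum, had 2001 and 2282 on the shLSD1 arrays, against 2388 and 2648 on the shControl arrays. The signals were close and did not overlap, and Jph2 measured -0.24 (SE 0.08, limma adjusted p = 0.102). Without shLSD1 replicate 2 it measured -0.33, and without shLSD1 replicate 1 it measured -0.14. Its second probe set, 1421453_at, had 375.1 and 419.5 on the shLSD1 arrays and 424.7 and 463.9 on the shControl arrays, or -0.16 in log2 terms (SE 0.12, limma adjusted p = 0.445 in the fit of all probe sets), with a range of -0.24 to -0.08 over the arrays left out. The skeletal junctophilin gene Jph1, with 956 and 1202 on the shLSD1 arrays and 1502 and 1595 on the shControl arrays, fell by 0.53 (SE 0.11, limma adjusted p = 0.0173). That call was lost without shControl replicate 1 (adjusted p = 0.0948), without shControl replicate 2 (0.132) and when its probe sets were averaged (-0.36, 0.129). Jsrp1, the junctional protein JP-45, measured -0.07 (SE 0.08, limma adjusted p = 0.596).

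Triadin, which links Ryr1 to calsequestrin, measured between -0.17 and 0.79 on the log2 scale, depending on the probe set. Trdn has 6 probe sets, designed from 3 sequence records, and 4 of them were bright enough to test. The representative, 1426143_at, had 621.9 and 686.6 on the shLSD1 arrays, against 387.5 and 369.0 on the shControl arrays. The groups were far apart, and it rose by 0.79, or 1.73-fold (SE 0.10, limma adjusted p = 2.85e-03). A brighter probe set from the same record, 1426144_x_at, had 591.2 and 768.9 on the shLSD1 arrays and 746.6 and 772.1 on the shControl arrays. Those groups overlapped, and it measured -0.17 (SE 0.13, limma adjusted p = 0.450 in the fit of all probe sets). Probe sets of the _x_at type hold probes that can match other transcripts. Without shLSD1 replicate 2, 1426144_x_at measured -0.36.

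The remaining tested Trdn probe sets lay between these values. With 1451801_at the signals were 205.9 and 272.0 on the shLSD1 arrays and 185.8 and 185.7 on the shControl arrays, or 0.35 in log2 terms (SE 0.18, limma adjusted p = 0.269). With 1426142_a_at they were 209.1 and 208.1 on the shLSD1 arrays and 165.5 and 195.7 on the shControl arrays, at 0.21 (SE 0.17, limma adjusted p = 0.483). Both were higher on the shLSD1 arrays without overlap. Leaving out 1 array at a time, 1451801_at measured 0.15 (without shLSD1 replicate 2) to 0.55 (without shLSD1 replicate 1), and 1426142_a_at 0.09 (without shControl replicate 1) to 0.33 (without shControl replicate 2). The other probe sets, 1426134_at and 1451940_x_at, had signals of 29.6 to 83.4 and were too dim to test. Within arrays, 1426143_at shifted by 0.66 against the mean of the other tested Trdn probe sets (SE 0.14), which did not pass the test over all such differences (limma adjusted p = 0.390). A filter at log2 8.92 left only 1426143_at and 1426144_x_at, and their difference of 0.96 then passed (limma adjusted p = 0.0129). When its probe sets were averaged Trdn measured 0.27 (limma adjusted p = 0.429), and represented by its brightest probe set of any type it measured -0.17 (limma adjusted p = 0.411), so the call for Trdn rests on 1 probe set. The ratio of Ryr1 to Trdn shifted by -1.34 (exact two-sided permutation p = 0.333, the smallest possible), and by -0.75 when each gene's probe sets were averaged.

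**Figure D3:**
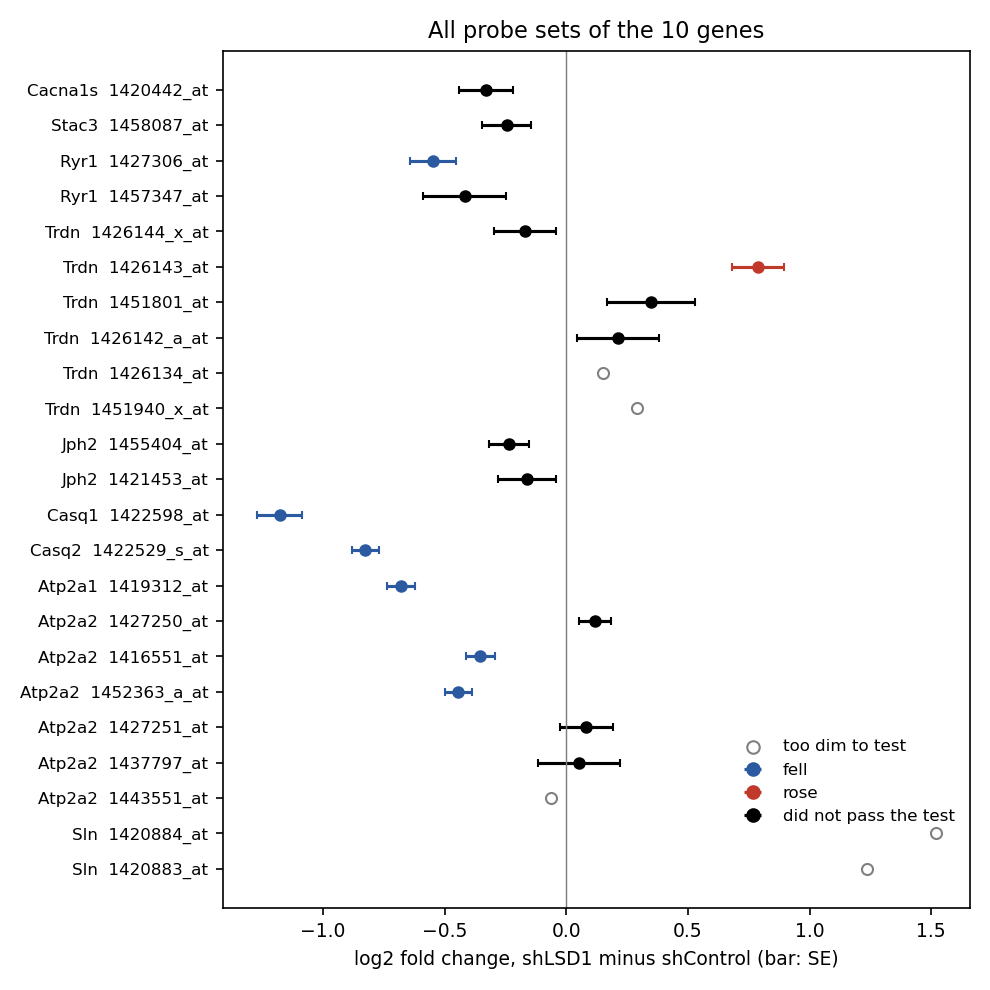
Log2 fold change (shLSD1 minus shControl) of all 23 probe sets, with its SE as a bar for the 18 tested in the fit of all probe sets, ordered by gene and then by signal. Blue points fell, red rose, black did not pass the test, and open circles were too dim to test. The Trdn probe sets span -0.17 to 0.79 and those of Atp2a2 -0.44 to 0.12 among the tested ones.

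Over the whole set of 23 probe sets, 5 were under the filter, and of the 18 tested 6 fell, 1 rose and 11 did not pass. These counts changed when 1 array was left out. In the fit with all 4 arrays 5.06% of all probe sets fell and 6.21% rose. Both shLSD1 signals were lower for 11 of the 18 and higher for 3, and the groups overlapped for 4. Over all probe sets above the filter 27.3% were lower and 28.4% higher without overlap, 55.7% together, and 26.2% had an unadjusted limma p under 0.05. The share called in either direction was 11.3%.

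**Figure D4:**
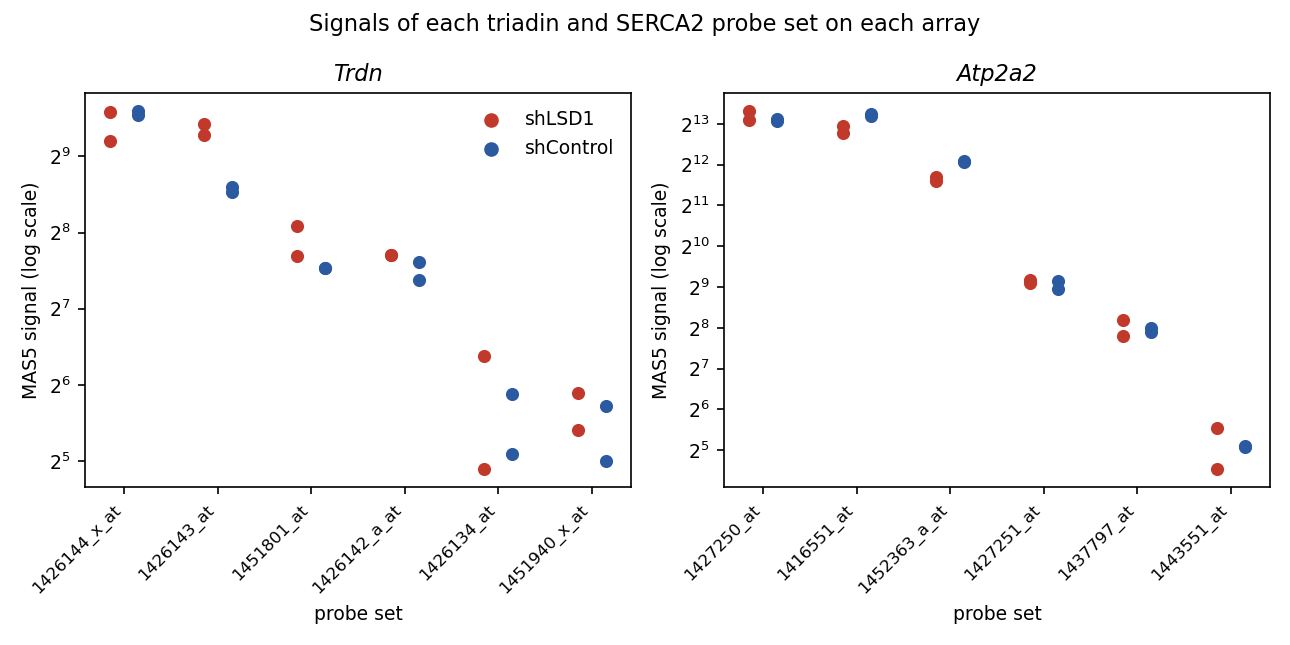
MAS5 signal, on a log axis, of each Trdn and Atp2a2 probe set on each array, with shLSD1 arrays in red on the left and shControl arrays in blue on the right of each probe set. Levels of different probe sets are not comparable. The 1426143_at signals of 621.9 and 686.6 stand above their controls, while those of 1426144_x_at overlap.

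Of 120 further genes written in 9 lists, 108 had a probe set and 83 were tested. Of these, 14 fell, 5 rose and 64 did not pass, with a median of 0.00. The share that fell was 16.9%, against 6.82% of all tested genes, and the share that rose was 6.02%, against 8.46%. These lists were chosen with earlier results of these data known, so the shares are descriptive only. The counts that fell and rose changed when 1 array was left out, as did the count called over all tested genes. Of 13 tested genes in the transverse tubule list, which also holds Z-disc genes, 4 fell, 0 rose, and the median was -0.20. The muscle caveolin gene Cav3 fell by 0.74 (SE 0.12, limma adjusted p = 5.93e-03), with 621.1 and 624.8 on the shLSD1 arrays and 927.7 and 1171 on the shControl arrays. The titin-cap gene Tcap fell by 0.67 and Ldb3, a Z-disc gene, by 0.36. The calls of Tcap and Ldb3 were lost without shControl replicate 1 (adjusted p = 0.0759 and 0.0645) and without shControl replicate 2 (0.0539 and 0.0719).

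Of 19 tested calcineurin and CaM kinase genes 3 fell, 1 rose, and the median was 0.00. Rcan2, a calcineurin regulator, had 3144 and 3728 on the shLSD1 arrays, against 1475 and 1473 on the shControl arrays, and rose by 1.22 on the log2 scale, or 2.32-fold (limma adjusted p = 2.48e-04). Myoz2, the calcineurin-binding Z-disc protein calsarcin-1, had 1059.7 and 1462 on the shLSD1 arrays and 2684 and 2618 on the shControl arrays, and fell by 1.09 (SE 0.13, limma adjusted p = 2.11e-03). Camk2a fell by 0.74 (SE 0.08, limma adjusted p = 1.34e-03), and averaging its probe sets ended that call (-0.43, adjusted p = 0.292). In these genes the groups did not overlap.

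Of 9 tested genes of store-operated entry 2 fell, 0 rose, and the median was 0.07. Orai1, the pore of store-operated entry, fell by 0.35 (limma adjusted p = 0.0245) and Saraf, which turns that entry off, by 0.22 (limma adjusted p = 0.0275). Both calls were lost without shControl replicate 1 (adjusted p = 0.125 and 0.170) and without shControl replicate 2 (0.171 and 0.203), and that of Orai1 when its probe sets were averaged (-0.06, adjusted p = 0.851). Of 4 tested extrusion and buffering genes, 0 fell and 0 rose by limma, with 0 at an unadjusted p under 0.05. Of 10 tested genes in the mitochondrial uptake list, 1 rose and 0 fell. The gene that rose encodes an exchanger, not an uptake channel. It was Slc8b1, the mitochondrial sodium-calcium exchanger gene, at 0.58 (SE 0.09, limma adjusted p = 5.04e-03), and its call was lost without shControl replicate 2 (adjusted p = 0.0526). In the release and junction list, 14 further genes were tested, of which 1 fell (Jph1) and 2 rose. Itpr3, a receptor for inositol trisphosphate that releases calcium in many cell types, rose by 0.49 (limma adjusted p = 4.00e-03). That call was lost without shControl replicate 2 (adjusted p = 0.0536). S100a1, a calcium-binding activator of ryanodine receptors, rose by 0.41 (limma adjusted p = 0.0122) and is named after its value was seen. Its call was lost without shControl replicate 1 (adjusted p = 0.0663), without shControl replicate 2 (0.110), with averaged probe sets (0.0525) and with the brightest probe set of any type (0.130).

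**Figure D5:**
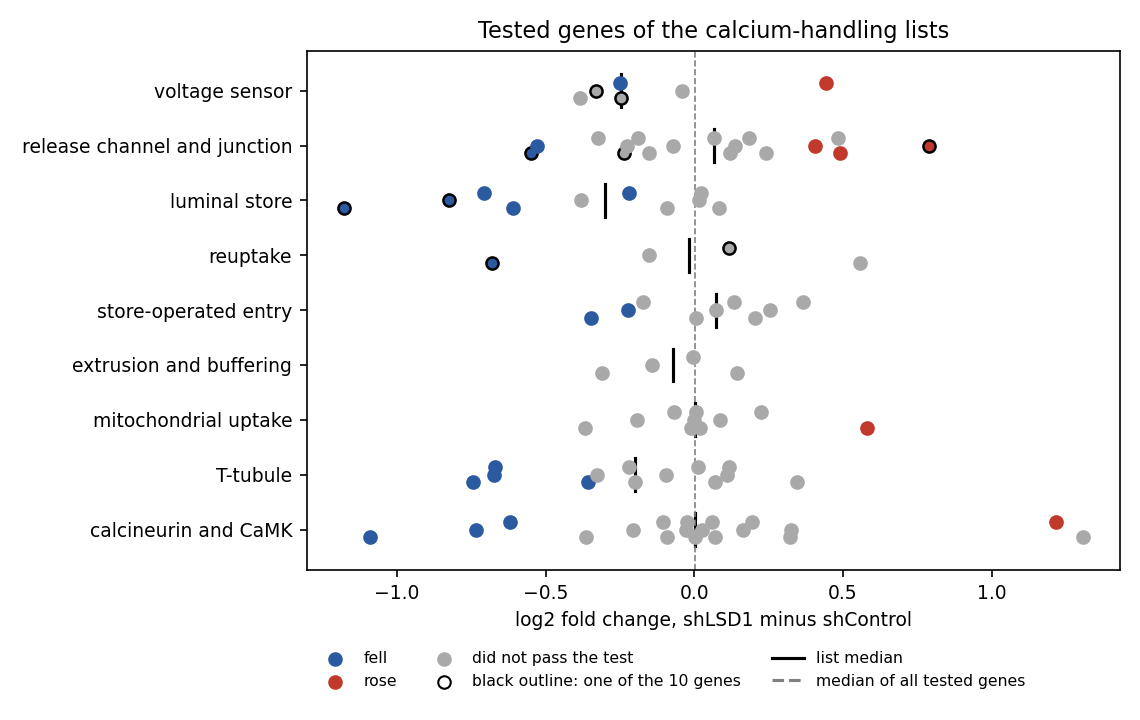
Log2 fold change (shLSD1 minus shControl) of every tested gene in the 9 calcium-handling lists, with the list median as a bar. The median of all tested genes is a dashed line, and the tested genes among the 10 are outlined in black. The luminal store list has 5 of 10 genes that fell and 0 that rose, Casq1 lowest at -1.18.

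Markers of differentiated muscle moved with the falls. Of 15 tested markers, 12 fell and 0 rose, with a median of -0.53, and their summed signal was 178690 to 196476 on the shLSD1 arrays and 250174 to 254629 on the shControl arrays. Tnnt3 fell by 0.83, Tnni2 by 0.76 and Tnnc2 by 0.49, all genes of the fast troponin complex (limma adjusted p = 8.72e-05, 1.16e-04 and 3.71e-04). Of 8 markers of proliferating myoblasts, 4 rose and 0 fell, with a median of 0.30, and their sum was 14873 to 15575 on the shLSD1 arrays and 11463 to 11959 on the shControl arrays. Myf5 rose by 1.28, Ccnd1 by 0.82 and Mki67 by 0.32 (limma adjusted p = 8.72e-05, 7.64e-04 and 0.0217). Of the other 4, Pax7, a marker of muscle stem cells, had 106.3 and 91.3 on the shLSD1 arrays and 155.3 and 155.0 on the shControl arrays, both lower in shLSD1, at -0.65 (SE 0.21, limma adjusted p = 0.0747). Id1 measured -0.22, Myod1 -0.17 and Id3 0.32, and none of these passed the test. Leaving out shControl replicate 1 ended the calls of Mki67, Top2a, Acta1, Mymk and Mylpf (highest adjusted p = 0.199), and leaving out shControl replicate 2 ended the same 5 (highest adjusted p = 0.183). Top2a also lost its call without shLSD1 replicate 1 (adjusted p = 0.0576). With no intensity trend the same 5 lost their calls. Myog, Ckm, Myh3 and Mymx then lost theirs too (limma adjusted p = 0.0527, 0.0627, 0.0502 and 0.0577). Averaging probe sets ended the calls of Chrng (-0.18, limma adjusted p = 0.536) and Top2a (0.07, limma adjusted p = 0.886). The part of these markers in the changes of the calcium genes was not tested.

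Markers of other cell types were checked in the same way. Of 6 tested fibroblast markers, 5 fell and 0 rose (median -0.53, summed signal 34312 to 39212 on the shLSD1 arrays and 47488 to 48342 on the shControl arrays), and their part in the changes was not tested. Each of the 5, Col1a1, Col3a1, Dcn, Lum and Pdgfrb, lost its call without shControl replicate 1 (adjusted p 0.104 to 0.247) and without shControl replicate 2 (0.0863 to 0.178). Of 6 tested cardiac markers 1 fell (Tnnt2) and 1 rose (Myl2), both lost without either shControl array (adjusted p 0.0968 to 0.265), with Myh6, Nppa, Myl7, Myl3 and Ryr2 below the filter. Of 4 tested smooth muscle markers 1 fell (Acta2) and 0 rose, with a summed signal of the list of 18141 to 22313 on the shLSD1 arrays and 23743 to 24128 on the shControl arrays. Most of that sum is Des, which is also in the list of differentiated muscle. Des had 14157 and 15709 on the shLSD1 arrays and 16031 and 15819 on the shControl arrays. Myh11, Cnn1 and Myocd lay below the filter on their mean log2 signal and were not tested. Cnn1, the gene of the smooth muscle protein calponin, nonetheless had 80.6 and 167.1 on the shLSD1 arrays and 13.7 and 12.8 on the shControl arrays. Both its shLSD1 signals, and neither of its shControl signals, were above the filter signal of 65.6. Both tested neuronal markers rose, Map2 by 1.33 and Tubb3 by 0.36, with a summed signal of the list of 3550 to 3612 on the shLSD1 arrays and 1944 to 2004 on the shControl arrays, while Rbfox3, Snap25 and Syt1 lay below the filter. The Tubb3 call was lost without shControl replicate 1 (adjusted p = 0.0802) and without shControl replicate 2 (0.111). Of 2 tested adipocyte markers 0 changed by limma, with 0 at an unadjusted p under 0.05, and all 4 markers of endothelium and blood were too dim to test.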

How the data were processed

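Total RNA from 4 C2C12 samples was hybridised to Affymetrix 3' expression arrays (250 ng per labelling, per the labels' protocols). The authors deposited linear-scale intensities, 1 for each probe set, made with MAS5 and Affymetrix Expression Console per the submitters' processing notes (versions: not given in the sources used here). Every array had a trimmed mean of 500.003. No detection calls were used here, and having 2 arrays a group limits precision.

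Signals under 1 were set to 1 (505 to 704 probe sets per array) and log2 was taken. Of 45101 probe sets, 34945 had 1 gene symbol, 932 several and 9160 none, and 64 were controls. GEO's platform annotation gave the symbols, and 0 needed an update through the gene ID. For each of 18193 genes 1 probe set was used, avoiding _x_at and _s_at types where another existed, then taking the brightest. Genes above the median mean log2 signal were fitted with limma 3.58.1 in R 4.3.3 (lmFit, eBayes with an intensity trend, two-sided), and all probe sets above it in a second fit. Another fit took each probe set's difference from its gene's other tested probe sets, with the variance trend on the dimmest of them. It was added after seeing the data. The limma script was tested on simulated data.

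The members and lists were chosen with earlier results of these data known. Named genes are Kdm1a, the 10 genes, a fixed set of paralogs and partners, and the 3 lowest adjusted p of each list, with Calr and S100a1 added after their values were seen. Further marker genes were named outside this rule, among them Pax7, Top2a, Myog, Col1a1 and Cnn1. Alternatives were leaving out each array, a replicate block, 2 other scalings, log2(signal + 32), other filters, no intensity trend, robust variance and other ways to represent a gene. Figures were drawn with matplotlib 3.10.9.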

Additional observations from a re-analysis of the deposited data

How the results depend on the processing

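The calls of Casq1, Casq2 and Atp2a1 held under every alternative of the gene fit, with adjusted p of at most 0.0260, 0.0268 and 0.0254, and Kdm1a ranged from -2.64 to -2.35 over the arrays left out. Leaving out 1 array at a time gave 3 to 6 of the 10 genes that fell and 1 to 2 that rose, 4 to 10 of their probe sets that fell and 1 to 2 that rose, 5 to 18 other calcium genes that fell and 1 to 8 that rose, and 505 to 2102 called genes in all, against 1649 with all 4 arrays. The 2 lowest totals came without a shControl array (520 and 505). With no intensity trend the total was 614, other calcium genes that fell numbered 4 and those that rose 1. Of the 10 genes, 3 then fell, and Ryr1 was lost (adjusted p = 0.0883 by limma), while in the fit of all probe sets 0 fell and 0 rose, with adjusted p of 0.0507 for Casq1, 0.0538 for Casq2, 0.0526 for Atp2a1 and 0.0578 for Trdn. With averaged probe sets the total was 900, and 0 of the 10 genes rose, as with the brightest probe set of any type, an alternative chosen after seeing the data. Averaging gave -0.10 for Atp2a2 and the brightest probe set -0.17 for Trdn, both with the sign turned. Values near 0 also changed sign without 1 array: 1427251_at of Atp2a2 (-0.014 to 0.18), 1437797_at (-0.14 to 0.25), 1426144_x_at of Trdn (-0.36 to 0.018) and the ratio of Cacna1s to Stac3 (-0.17 to 0.0010). Array numbers 1 and 2 do not pair the samples as far as the labels say, and deviations of same-numbered arrays from their group means correlated at 0.01. A replicate block gave 8 other calcium genes that rose and 6 of the 10 genes that fell, Stac3 and Jph2 added. Quantile normalization, median centring and log2(signal + 32) changed no call among the 10 genes. Dim signals limit Sln, Ryr2 and Pln, which stayed under the filter.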
